A study of Mus musculus with 6 samples.

Results

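The genes described here encode the centromere, the kinetochore and the spindle assembly checkpoint of cultured mouse lung fibroblasts. A list of 39 genes was matched to the gene symbols of the array's annotation, and 36 of them were measured among 22180 genes in all. 33 matched by their exact symbol, and 3 older symbols (Casc5, Sgol1 and Sgol2a) were matched by gene number to Knl1, Sgo1 and Sgo2a, the names used below. Hjurp, Oip5 and Mis12 matched only probe sets annotated to several genes and were given no value. The list was drawn up by name and function but with earlier results of these data known, so the choice of its members may not be independent of these data.

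The kinetochore is the protein assembly on each chromosome's centromere that binds the microtubules of the spindle. Its base is marked by nucleosomes with the histone variant CENP-A and built on by a constitutive network of CENP proteins, and its outer face, assembled for mitosis, holds the microtubule-binding Ndc80 complex. The checkpoint delays separation of the chromosomes until every kinetochore is attached. Most of these genes are transcribed mainly in the later part of the cell cycle, so their RNA in a culture is widely used as a sign of how many cells are dividing.

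Both groups were primary fibroblasts from lungs of adult mice of mixed strain with the genotype UBCCreERT/RSmoM2, all under 1 genotype number. The design text writes the alleles as UBCCreERT2:R26RSmoM2. A Cre recombinase driven by the broadly active ubiquitin C promoter switches on, once 4-hydroxytamoxifen (4OHT) is added, the SmoM2 allele, which encodes the hedgehog signal transducer Smoothened in a permanently active form. The 4OHT group (n = 3) received 1 µg/ml 4OHT and the vehicle group (n = 3) received vehicle, and RNA was taken after 48 h and hybridised to 6 single-colour arrays. The vehicle wells carried the same alleles, so the drug, the activity of Cre and active SmoM2 cannot be told apart. The wells were split from isolated cells and nothing in the labels says that they came from separate animals, so the p-values reflect well-to-well spread alone, which may be technical, and the number of arrays limits their precision.

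The arrays were alike, with a median log2 level over all genes between 7.44 and 7.47. Markers of fibroblasts were bright in both groups: Col1a1, a collagen chain, had a mean log2 level of 13.71 ± 0.01 in 4OHT wells and 13.74 ± 0.01 in vehicle wells, and Pdgfra, a receptor of mesenchymal cells, of 11.38 ± 0.06 in 4OHT wells and 11.37 ± 0.04 in vehicle wells (SD, n = 3). At an adjusted p under 0.05, 6.62% of all genes were called lower and 5.38% higher in 4OHT wells. Of 12 fibroblast markers 2 were lower, Col3a1 and S100a4 (log2 fold changes -0.29 and -0.42), and none higher. Markers of other cell types were bright as well. The smooth muscle gene Acta2 had mean log2 levels of 14.17 in 4OHT wells and 14.30 in vehicle wells, and the mesothelial gene Upk1b of 13.56 and 13.49. Of 12 smooth muscle and pericyte markers 9 were lower, with the pericyte gene Rgs5 at a log2 fold change of -1.19, and the mean log2 level of the list lay between 10.97 and 11.05 on the 4OHT arrays and between 11.46 and 11.48 on the vehicle arrays. Of 12 endothelial markers 4 were lower and 2 higher (7.41 to 7.46 on the 4OHT arrays, 7.60 to 7.72 on the vehicle arrays). The lower ones included Cdh5 and Erg, with log2 fold changes of -0.95 and -0.99. The higher ones were Tek and Kdr (0.42 and 0.21), and the median of the list was -0.04. Of 13 macrophage and leukocyte markers 2 were lower and 1 higher, with a mean log2 level of 7.02 to 7.10 on the 4OHT arrays and of 7.08 on each vehicle array. Of 12 epithelial markers 1 was lower (6.73 to 6.82 on the 4OHT arrays, 6.79 to 6.85 on the vehicle arrays). Of 6 mesothelial markers 2 were lower and 1 higher (11.12 to 11.17 on the 4OHT arrays, 11.24 to 11.27 on the vehicle arrays). These array values have no zero, so absence of a marker cannot be read from them. The part of these cell types in the results below was not tested.

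Most of the listed kinetochore genes were lower in 4OHT wells. Of 28 measured kinetochore genes outside the list, described further below, 12 were lower. 29 of the 36 measured members passed an adjusted p under 0.05 (limma, adjusted over all genes) and were lower, against 6.62% of all genes called lower, and none was higher, against 5.38% of all genes. With the 33 exact symbols alone, 27 were lower. The median log2 fold change of the members, 4OHT minus vehicle, was -0.67, or 1.59-fold lower, beside a median of -0.01 over all genes. In 32 members every 4OHT array lay below every vehicle array, as in 17.8% of all genes, and in Zwint alone every 4OHT array lay above. Changes of at least 2-fold were found in 6 members, Ndc80, Nuf2, Bub1, Ska3, Ttk and Zwilch, beside 0.352% of all genes. In RNA of whole wells, fewer dividing cells and less of these transcripts in each cell cannot be told apart.

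**Figure D1:**
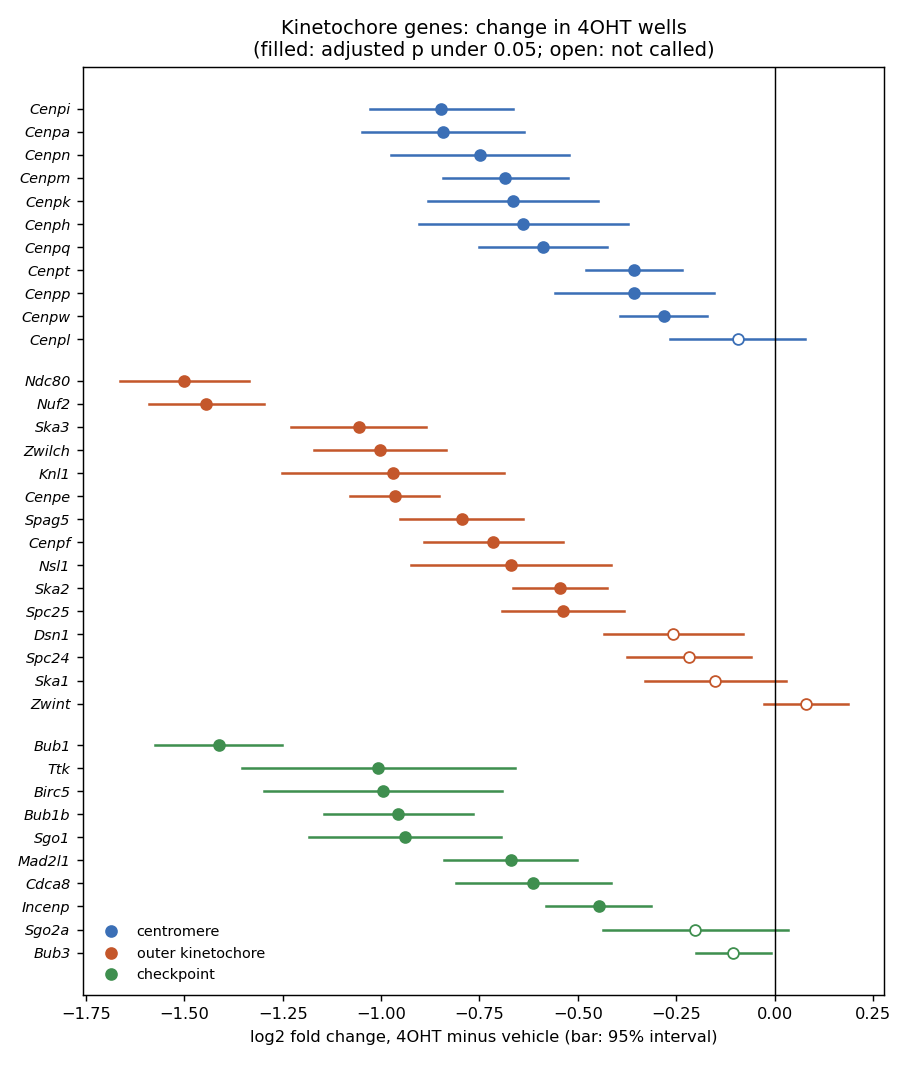
Log2 fold change (4OHT minus vehicle, horizontal axis) of the 36 measured kinetochore genes (vertical axis) by class, with 95% intervals from limma on 3 arrays against 3; filled points passed an adjusted p under 0.05. The values run from -1.5 for Ndc80 to 0.08 for Zwint, and the 7 open points are spread over all 3 classes.

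The log2 fold changes of the outer kinetochore ran from -1.5 for Ndc80 to 0.08 for Zwint. 11 of its 15 measured members were lower, against 6.62% of all genes, and 4 did not pass. The median log2 fold change was -0.71. Its core is the Ndc80 complex, a rod with Ndc80 and Nuf2 at the microtubule end and Spc24 and Spc25 at the chromosome end. Ndc80 had log2 levels of 7.02, 7.06 and 7.14 on the 4OHT arrays, against 8.54, 8.48 and 8.70 on the vehicle arrays. The groups stood far apart, and Ndc80 fell by 1.5 on the log2 scale, or 2.83-fold (95% interval -1.66 to -1.34, adjusted p = 0.000188), the 10th largest fall of all genes. Its partner Nuf2 had 7.0, 7.12 and 7.19 on the 4OHT arrays, against 8.54, 8.50 and 8.59 on the vehicle arrays. Nuf2 changed almost as much, falling 2.72-fold (log2 fold change -1.44, 95% interval -1.59 to -1.30, adjusted p = 0.000164). Spc25 at the other end of the rod had 7.70, 7.48 and 7.58 on the 4OHT arrays, against 8.17, 8.09 and 8.12 on the vehicle arrays. It was lower on every 4OHT array, with a log2 change of -0.54 (95% interval -0.69 to -0.38, adjusted p = 0.00363). Spc24 had 7.28, 7.36 and 7.40 on the 4OHT arrays, against 7.66, 7.45 and 7.58 on the vehicle arrays. The groups of Spc24 did not overlap but lay close, and its log2 fold change of -0.22 did not pass (adjusted p = 0.0869, 95% interval -0.37 to -0.06). The 95% intervals of the pair at the microtubule end did not overlap those of the pair at the chromosome end. The difference itself was not tested, and probe sets can differ in how far they compress a change.

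The Mis12 complex joins the Ndc80 rod to the centromere, and Knl1 is the scaffold on which checkpoint proteins assemble. Knl1 had log2 levels of 7.54, 7.44 and 7.87 on the 4OHT arrays, against 8.67, 8.47 and 8.62 on the vehicle arrays. It was 1.96-fold lower (log2 fold change -0.97, adjusted p = 0.00375), although 4OHT replicate 3 stood above the other two. Nsl1, a Mis12 complex subunit, had 6.57, 6.35 and 6.27 on the 4OHT arrays, against 7.22, 7.07 and 6.90 on the vehicle arrays, and was 1.59-fold lower (adjusted p = 0.0106). Dsn1, another subunit, had 7.91, 7.86 and 8.09 on the 4OHT arrays, against 8.13, 8.25 and 8.25 on the vehicle arrays. The highest 4OHT array of Dsn1 almost reached the lowest vehicle array, and the change did not pass (log2 fold change -0.26, adjusted p = 0.0749). It did pass without 4OHT replicate 3 (adjusted p = 0.0293). Zwint, which binds Knl1 and helps recruit the RZZ complex, had 11.67, 11.69 and 11.68 on the 4OHT arrays, against 11.63, 11.55 and 11.63 on the vehicle arrays. It was the only measured member with a positive change, 0.08 on the log2 scale (adjusted p = 0.311, 95% interval -0.03 to 0.19), an interval that leaves no room for a fall of the size seen in Knl1.

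**Figure D2:**
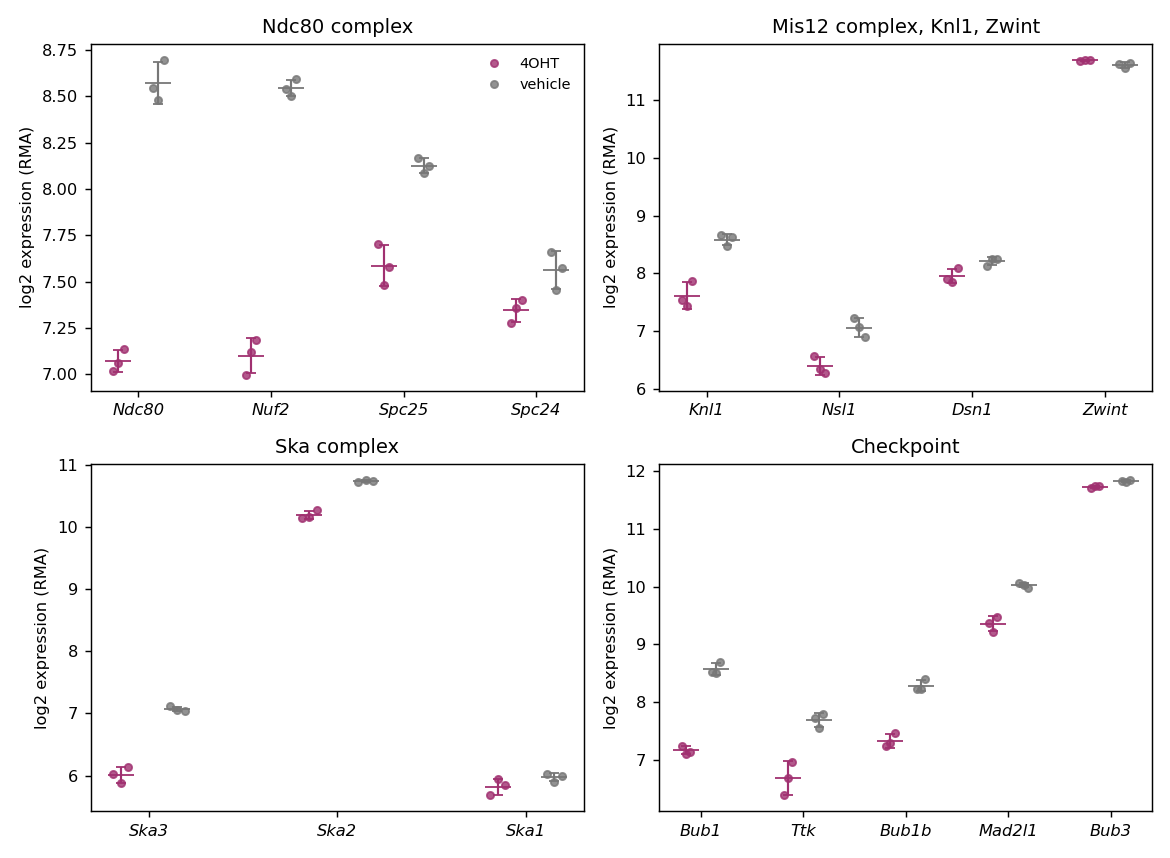
Log2 expression (RMA, vertical axis, own range in each panel) of genes of 4 kinetochore groups on each 4OHT array (left of each pair, purple) and vehicle array (right, grey); points are arrays, lines and bars the mean ± SD (n = 3). Ndc80 and Nuf2 separate the groups widely, while Spc24, Dsn1, Ska1, Zwint and Bub3 differ by 0.26 or less.

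The Ska complex steadies the grip on microtubules that shorten. Ska3 had log2 levels of 6.02, 5.88 and 6.14 on the 4OHT arrays, against 7.11, 7.06 and 7.04 on the vehicle arrays, and fell 2.08-fold (log2 fold change -1.06, adjusted p = 0.000479). Ska2 had 10.15, 10.15 and 10.27 on the 4OHT arrays, against 10.73, 10.76 and 10.73 on the vehicle arrays, and was 1.46-fold lower (adjusted p = 0.00129). Ska2 was the only member with a second probe set, which differed by -0.19 on the log2 scale and did not pass over all probe sets (adjusted p = 0.141). Ska1, the third subunit, had 5.69, 5.94 and 5.84 on the 4OHT arrays, against 6.03, 5.90 and 5.99 on the vehicle arrays. Its groups overlapped and their means differed by -0.15 on the log2 scale (adjusted p = 0.264, 95% interval -0.33 to 0.03), so a fall in signal as large as that of Ska3 lies outside the interval. Ska1 was dim, with mean log2 levels of 5.82 in 4OHT wells and 5.97 in vehicle wells beside a median level of 7.46 over all genes. A change in its RNA may therefore be compressed.

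Cenpe, a kinesin motor that carries chromosomes to the middle of the spindle, had log2 levels of 7.45, 7.39 and 7.42 on the 4OHT arrays, against 8.33, 8.44 and 8.38 on the vehicle arrays. Its replicates were tight and it was 1.95-fold lower (adjusted p = 0.000188, log2 fold change -0.97 with an SE of 0.047). Zwilch, a subunit of the RZZ complex that brings dynein and checkpoint proteins to unattached kinetochores, had 7.74, 7.56 and 7.51 on the 4OHT arrays, against 8.55, 8.62 and 8.64 on the vehicle arrays (2.0-fold lower, adjusted p = 0.000525). Spag5, or astrin, which binds attached kinetochores and spindle poles, was 1.74-fold lower, and Cenpf, a large coiled-coil protein of the outermost layer, was 1.64-fold lower (adjusted p = 0.000877 and 0.00198). In both genes the groups did not overlap.

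In the class of checkpoint, passenger complex and shugoshin genes, 8 of 10 measured members were lower, against 6.62% of all genes, and 2 did not pass. The median log2 fold change of the class was -0.81. Bub1, a kinase that docks on Knl1, had log2 levels of 7.25, 7.11 and 7.14 on the 4OHT arrays, against 8.53, 8.51 and 8.69 on the vehicle arrays, and fell 2.66-fold (log2 fold change -1.41, 95% interval -1.57 to -1.25, adjusted p = 0.000188). Bub1b encodes BubR1, a part of the complex that inhibits the anaphase-promoting complex. It had 7.24, 7.28 and 7.46 on the 4OHT arrays, against 8.22, 8.23 and 8.40 on the vehicle arrays (1.94-fold lower, adjusted p = 0.000901). Ttk, the Mps1 kinase that starts checkpoint signalling, had 6.39, 6.69 and 6.97 on the 4OHT arrays, against 7.72, 7.56 and 7.79 on the vehicle arrays. It was 2.01-fold lower with the widest spread of the members among 4OHT arrays (SD 0.29, n = 3; adjusted p = 0.00707).

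Mad2l1, which encodes the checkpoint protein Mad2, had log2 levels of 9.38, 9.22 and 9.47 on the 4OHT arrays, against 10.06, 10.04 and 9.99 on the vehicle arrays, and was 1.59-fold lower (adjusted p = 0.00212). Bub3, which brings Bub1 and BubR1 to Knl1, differed from these. It had 11.71, 11.74 and 11.74 on the 4OHT arrays, against 11.84, 11.82 and 11.85 on the vehicle arrays. The groups did not overlap, but a difference of -0.10 on the log2 scale did not pass (adjusted p = 0.158, 95% interval -0.20 to -0.01), and the interval excludes falls as large as those of Bub1, Bub1b, Ttk or Mad2l1. Only with eBayes set to a trend and to robust, or among genes above the median level, was Bub3 called lower.

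The chromosomal passenger complex, which frees wrongly attached microtubules through the kinase Aurora B, was lower in each of the 3 members listed. Birc5, or survivin, had log2 levels of 6.32, 5.96 and 6.16 on the 4OHT arrays, against 6.91, 7.23 and 7.28 on the vehicle arrays, and was 1.99-fold lower (adjusted p = 0.00454). Cdca8, or borealin, was 1.53-fold lower (adjusted p = 0.00545) and Incenp, the scaffold of the complex, 1.36-fold lower (adjusted p = 0.00431). The shugoshins guard the cohesion of sister centromeres, and their results differed. Sgo1 had 6.70, 6.87 and 6.66 on the 4OHT arrays, against 7.71, 7.49 and 7.85 on the vehicle arrays, and was 1.92-fold lower (adjusted p = 0.00238). Sgo2a had 6.94, 6.76 and 6.90 on the 4OHT arrays, against 7.20, 7.14 and 6.86 on the vehicle arrays, so that the groups overlapped through vehicle replicate 3 (log2 fold change -0.20, 95% interval -0.44 to 0.03, adjusted p = 0.256).

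Most listed genes of the constitutive centromere were lower too. Of centromere genes outside the list, Cenpc1, Cenpo, Itgb3bp, Cenps and Cenpb did not pass and Cenpx was lower, as given below. 10 of 11 measured members were lower, against 6.62% of all genes, with a median log2 fold change of -0.64. None was at least 2-fold lower, against 4 members of the outer kinetochore, 2 of the checkpoint class and 0.352% of all genes. The classes were not tested against each other. The centromere class was the dimmest, with mean log2 levels of 7.77 to 7.86 on the vehicle arrays, against 8.32 to 8.45 for the others. Changes of dim probe sets are compressed. Cenpa, the centromeric histone variant, had log2 levels of 8.19, 8.31 and 8.46 on the 4OHT arrays, against 9.21, 9.04 and 9.24 on the vehicle arrays, and was 1.79-fold lower (log2 fold change -0.84, 95% interval -1.05 to -0.64, adjusted p = 0.0019). Cenpn, whose product reads the CENP-A nucleosome, had 8.81, 8.65 and 9.0 on the 4OHT arrays, against 9.63, 9.48 and 9.59 on the vehicle arrays (1.68-fold lower, adjusted p = 0.00439). Its partner in that reading, Cenpl, had 6.90, 6.67 and 6.89 on the 4OHT arrays, against 6.88, 6.96 and 6.90 on the vehicle arrays. The groups of Cenpl overlapped, and its log2 fold change was -0.09 (95% interval -0.27 to 0.08, adjusted p = 0.475), an interval outside that of Cenpn. The difference between these partners was not tested.

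The subunits Cenph, Cenpi, Cenpk and Cenpm form 1 module of the network. Cenpi had the largest fall of the centromere class, with log2 levels of 6.56, 6.66 and 6.64 on the 4OHT arrays, against 7.39, 7.39 and 7.62 on the vehicle arrays (1.80-fold lower, adjusted p = 0.00119). Cenpm was 1.61-fold, Cenpk 1.59-fold and Cenph 1.56-fold lower (adjusted p = 0.00155, 0.00583 and 0.0143), so the 4 subunits lay between -0.85 and -0.64 on the log2 scale. The Cenph call was lost without vehicle replicate 2 (adjusted p = 0.0554). Cenpp and Cenpq belong to another module, and Cenpq was 1.5-fold lower (adjusted p = 0.00311). Cenpo and Itgb3bp, of that module but outside the list, did not pass (log2 fold changes -0.08 and -0.04, adjusted p = 0.425 and 0.802). Cenpp was 1.28-fold lower, a call (adjusted p = 0.0408) that held without vehicle replicate 1 (0.0310) and was lost without any other array (highest 0.128). Cenpt and Cenpw form a histone-like pair that binds the Ndc80 complex, and their changes were small. Cenpt had 9.48, 9.55 and 9.62 on the 4OHT arrays, against 9.89, 9.93 and 9.90 on the vehicle arrays (1.28-fold lower, adjusted p = 0.00692), and Cenpw was 1.22-fold lower (adjusted p = 0.0118).

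**Figure D3:**
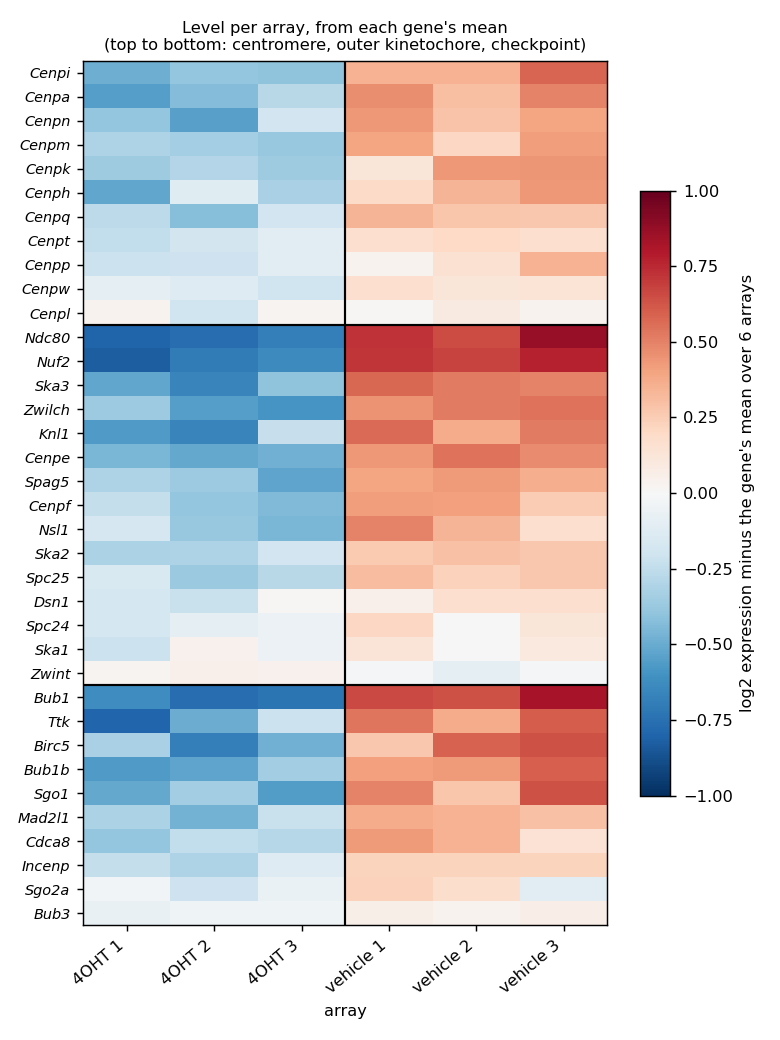
Log2 expression of each measured kinetochore gene (rows, by class) on each array (columns, 4OHT left of vehicle), as the difference from the gene's mean over the 6 arrays; blue is below and red above that mean. Members change colour between the groups in nearly every row, and Zwint, Bub3, Ska1, Cenpl and Sgo2a are pale.

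The medians of the centromere, outer kinetochore and checkpoint classes, -0.64, -0.71 and -0.81, were not tested against each other. Their order changed without 4OHT replicate 1 (-0.60, -0.78 and -0.77) and in the fit limited to the brighter genes, those above the median level (-0.68, -0.88 and -0.67), and their ranges overlapped widely (-0.85 to -0.09, -1.5 to 0.08 and -1.41 to -0.10). The mean log2 level of the 36 members lay between 7.50 and 7.57 on the 4OHT arrays and between 8.18 and 8.22 on the vehicle arrays, so the spread inside a group was small beside the gap. No array carried the result, since 27 to 29 members were lower when any 1 array was left out, and 27 of the 29 calls held without each of the 6 arrays. Across the members, mean level and log2 fold change were weakly related (Pearson's r = 0.19, Spearman's rho = 0.02, n = 36 probe sets that share the arrays). The 20 members above the median level of all genes had a median change of -0.72 on the log2 scale and the rest of -0.65.

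Other genes of the kinetochore were taken from a list of 30 that held no member. Of 28 measured, 12 were lower (42.9%, against 6.62% of all genes), 16 did not pass and none was higher, with a median log2 fold change of -0.18. The 6 genes of smallest p, all lower, are named first. Plk1, a kinase that acts at kinetochores among other places, fell by 1.51 on the log2 scale, Cdc20, the target of the checkpoint, by 1.12, Aurkb, the kinase of the passenger complex, by 1.09, and Kif2c, a microtubule-depolymerising kinesin, by 1.05 (adjusted p from 0.000164 to 0.00267). Kntc1, the Rod subunit of the RZZ complex, fell by 0.89 and Spdl1, a dynein adaptor, by 0.54. Cenpc1, which encodes the linker CENP-C, stood at -0.03 on the same scale (adjusted p = 0.711), and Cenpb, which binds a satellite DNA motif, at 0.08 (adjusted p = 0.533). Cenpo, Itgb3bp, Cenps, Zw10 and Mad1l1 did not pass either (log2 fold changes -0.08, -0.04, -0.02, -0.06 and -0.10). Cenpx, at -0.23, was called lower (adjusted p = 0.0470). 7 members of this list were lower without vehicle replicate 2.

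Neighbouring lists of cell division genes also held many genes called lower, beside 6.62% of all genes. Of 24 spindle and cytokinesis genes 21 were lower (median log2 fold change -1.03), including the cytokinesis genes Prc1 (-1.46) and Anln (-1.21). Of 19 measured mitotic regulators 16 were lower (median -0.71), including the cyclin genes Ccna2 (-1.58) and Ccnb2 (-1.36). Of 37 measured DNA replication genes 22 were lower (median -0.39), including the helicase subunit gene Mcm5 (-1.31). None of these lists had a member called higher, against 5.38% of all genes. The kinetochore members, at 80.6% lower and a median of -0.67, stood within the range of these lists, and no difference between lists was tested.

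**Figure D4:**
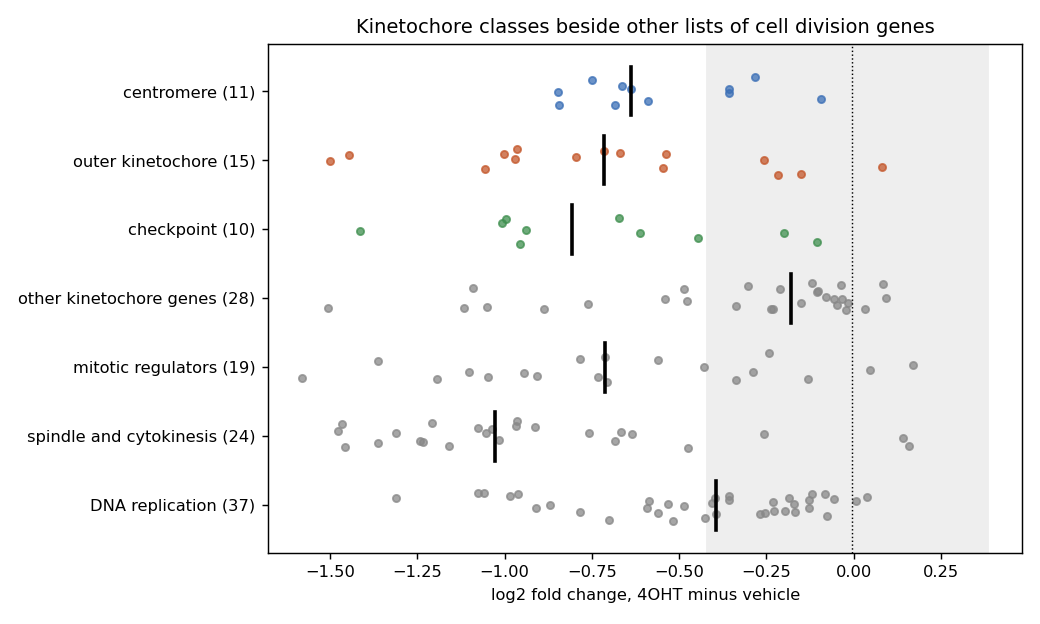
Log2 fold change (4OHT minus vehicle, horizontal axis) of each gene in the 3 kinetochore classes (coloured) and in 4 other lists (grey), with the number measured in brackets; black bars are medians, the dotted line the median of all genes and the shaded band their central range from -0.42 to 0.39. The class medians of -0.64, -0.71 and -0.81 lie below the band, as do those of the mitotic regulators at -0.71 and of the spindle and cytokinesis genes at -1.03.

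Promoter sequence was examined for motifs known from genes of cell division. RefSeq start sites of GRCm38.p6 gave windows of 300 bases, from 250 before to 50 after the start, for 31 of the 36 measured members (35 windows, 3 members with several). The windows were searched on both strands for TTTGAA, the cell cycle genes homology region (CHR) of many genes of late cell cycle, for CCAAT, the box bound by NF-Y, and for TTCCCGC, a core of E2F sites. The sequences shown are the windows of the members with the largest falls, Ndc80 and Nuf2, of Cenpa and Bub1b from the other classes, and of Bub3, which was not called. They are written 5′ to 3′ along the gene's strand, and capitals mark a match to any of the 3 motifs or its reverse complement.
Ndc80, chr17:71526808-71527107, minus strand: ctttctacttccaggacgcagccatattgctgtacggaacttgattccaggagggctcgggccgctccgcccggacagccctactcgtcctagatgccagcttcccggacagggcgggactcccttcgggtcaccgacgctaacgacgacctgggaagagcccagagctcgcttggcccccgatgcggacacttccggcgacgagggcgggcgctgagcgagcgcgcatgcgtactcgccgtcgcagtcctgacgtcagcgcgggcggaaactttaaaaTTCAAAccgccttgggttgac
Nuf2, chr1:169531415-169531714, minus strand: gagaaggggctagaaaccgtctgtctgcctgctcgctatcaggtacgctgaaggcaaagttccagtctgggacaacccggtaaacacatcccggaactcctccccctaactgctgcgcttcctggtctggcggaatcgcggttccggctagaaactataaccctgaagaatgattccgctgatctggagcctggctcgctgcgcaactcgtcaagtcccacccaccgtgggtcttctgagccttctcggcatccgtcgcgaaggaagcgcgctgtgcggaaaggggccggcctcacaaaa
Cenpa, chr5:30666636-30666935, plus strand: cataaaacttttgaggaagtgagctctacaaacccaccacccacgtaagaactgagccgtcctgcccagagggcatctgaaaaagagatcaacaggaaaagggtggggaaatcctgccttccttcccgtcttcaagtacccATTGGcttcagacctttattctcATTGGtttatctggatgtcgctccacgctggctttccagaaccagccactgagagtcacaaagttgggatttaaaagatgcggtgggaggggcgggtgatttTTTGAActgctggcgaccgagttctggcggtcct
Bub1b, chr2:118597961-118598260, plus strand: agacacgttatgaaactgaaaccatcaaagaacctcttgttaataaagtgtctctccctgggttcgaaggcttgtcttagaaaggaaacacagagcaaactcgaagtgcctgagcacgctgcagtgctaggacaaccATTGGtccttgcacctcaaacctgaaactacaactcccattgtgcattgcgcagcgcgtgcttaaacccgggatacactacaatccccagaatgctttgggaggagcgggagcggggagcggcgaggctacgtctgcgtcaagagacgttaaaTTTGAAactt
Bub3, chr7:131560120-131560419, plus strand: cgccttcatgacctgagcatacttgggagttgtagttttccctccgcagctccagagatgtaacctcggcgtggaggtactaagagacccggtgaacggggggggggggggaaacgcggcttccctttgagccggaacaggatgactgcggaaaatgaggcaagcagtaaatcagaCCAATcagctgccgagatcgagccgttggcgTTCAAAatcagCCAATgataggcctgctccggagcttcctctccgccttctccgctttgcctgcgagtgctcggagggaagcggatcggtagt

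TTTGAA stood in the window of 14 of 31 members (45.2%), beside 20.2% of the 27025 genes of the promoter table. CCAAT stood in 22 of 31 (71.0%), beside 41.1%, and TTCCCGC in 7 of 31 (22.6%), beside 5.29%. Matches of TTTGAA and CCAAT overlapped by shared bases in Cenpw and Cdca8. 13 of the 14 members with TTTGAA had it within 50 bases of the start (41.9% of members, beside 5.72% of all genes), a distance chosen after the matches were seen. Ndc80 held TTTGAA on the other strand 29 bases after the start, whereas Nuf2, with nearly the same fall, held none of the 3 motifs. Cenpa and Bub1b held TTTGAA at 16 and 40 bases after the start with CCAAT upstream, and Bub3 held TTTGAA and CCAAT as well. In Bub3, TTTGAA lay at -43 from the start in the window shown and at -167 in its other window. Among members called lower, 12 of 26 held TTTGAA, and among those not called, 2 of 5. The E2F core was in the windows of 4 of 26 members called lower (15.4%) and of 3 of 5 not called (60.0%). TTCCCGC was found in 5 of 11 centromere members (45.5%), 1 of 11 outer kinetochore members and 1 of 9 checkpoint members. These are matches of letters and not measured binding, and no test was made on them. The motifs are known from genes of cell division, so higher shares in these members than in all genes do not bear on the change with 4OHT.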

How the data were processed

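Total RNA of 6 wells was labelled from an oligo(T) primer and hybridised to single-colour Affymetrix arrays, per the labels' protocols. The deposited table holds log2 expression values per probe set, made with oligo, RMA and limma, versions not given, per the submitters' processing notes. RMA equalises the arrays' distributions and compresses changes of dim probe sets, so a shift shared by all genes would be removed.

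Of 41345 probe sets, 23521 had 1 gene symbol and were used, 1814 had several and 16010 none. Of several probe sets for a gene the brightest on average was taken, which left 22180 genes with no filter on dim ones. The comparison used limma 3.58.1 in R 4.3.3 (lmFit, eBayes, two-sided, 6.70 degrees of freedom), with Benjamini-Hochberg adjustment over all genes and an adjusted p under 0.05 as the threshold. The fit was tested on simulated data with noise drawn independently for each gene and array, so the test does not cover dependence between wells. All measured members are named, and from other lists up to 6 genes of smallest p plus some markers. Cenpb, Cenpc1, Cenpo, Itgb3bp, Cenps, Cenpx, Zw10 and Mad1l1 were named after their values were seen. The members and lists were chosen with earlier results of these data known, so no list was given a test. 16 alternative settings were run.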

Additional observations from a re-analysis of the deposited data

How the results depend on the processing

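The fit without each array in turn gave 27 to 29 kinetochore members lower and none higher, with a median log2 fold change from -0.69 to -0.66. The outer kinetochore median ranged from -0.78 to -0.67, the other kinetochore genes lower from 7 to 12, the mitotic regulators higher from 0 to 1, and over all genes 734 to 1340 were lower and 486 to 986 higher. Same-numbered arrays of the groups shared little deviation (correlations 0.062, -0.024 and 0.043, beside -0.076 to 0.031 for other pairs). These values cannot settle whether the labels' replicate numbers pair the wells. With the replicate number as a block 920 genes were lower and 648 higher, and no member's call changed. Among genes above the median level only 20 members were tested and 19 were lower (median -0.72), 5 in the centromere and 5 in the checkpoint class. The medians there were -0.88 for the outer kinetochore, -0.67 for the checkpoint class, -0.14 for other kinetochore genes and -0.63 for mitotic regulators, and 13 spindle genes were lower and 1 higher. eBayes with a trend and robust called 2295 genes lower and 1828 higher, with 1 mitotic regulator and 2 spindle genes higher. 1 spindle gene was higher after centring the arrays, after quantile normalization again and with array weights. At an adjusted p under 0.01, 615 genes were lower and 395 higher, with 6 other kinetochore genes lower, and 4 member calls were lost (Cenph, Cenpp, Cenpw and Nsl1). With at least 1.5-fold added, 304 were lower and 159 higher, with 6 other kinetochore and 11 DNA replication genes lower, and 6 member calls were lost. Dsn1 was gained in 4 settings and Bub3 in 2. No member reversed, while the marker Pdgfra (log2 fold change 0.01) was at -0.0279 without 4OHT replicate 1, at -0.0107 without vehicle replicate 1 and at up to 0.0308 (without 4OHT replicate 3). Only 3 arrays a group limit what small changes can be called, and changes of dim probe sets are compressed.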
